A study of Mus musculus with 40 samples.

Results

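Transcripts of 8 genes, of the Greatwall pathway and of the phosphatase it restrains, were followed in 40 single mouse spermatocytes. They were taken by symbol, 8 of the 55492 genes of the count table. Mastl encodes the Greatwall kinase, Ensa and Arpp19 encode its small substrates, Ppp2r1a and Ppp2r1b encode the scaffold subunits of protein phosphatase 2A (PP2A), and Ppp2r2a, Ppp2r2b and Ppp2r2d encode regulatory subunits of the B55 family.

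At entry into M phase, Greatwall phosphorylates ENSA and ARPP19, which then bind and block PP2A that carries a B55 subunit, so that substrates of the CDK1 kinase stay phosphorylated. PP2A is built from a catalytic subunit, a scaffold and 1 of several regulatory subunits that choose its substrates. In male meiosis, spermatocytes pass a long pachytene stage, with homologous chromosomes fully paired, before CDK1 activity carries them to metaphase I.

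The cells came from testis of C57BL/6J mice aged 6 to 8 weeks, and 20 libraries were named Pachytene and 20 Metaphase I, each made from 1 cell. Elutriation, a centrifugal separation by cell size, gave the spermatocytes, and okadaic acid at 4 µM for 5 h brought cultured cells to metaphase I. Okadaic acid inhibits the phosphatases PP1 and PP2A, so the drug acts on the phosphatase whose scaffold and B55 subunits some of these genes encode. All 40 libraries carry one protocol text, so only the name marks the Metaphase I libraries as treated. A drug-free culture of the Pachytene cells is neither stated nor denied in the labels, and stage, drug and time in culture cannot be told apart. No animal or culture is named, so each group is 1 sample: differences are described, no test was made, and intervals (95%) cover counting error only.

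ENSA and ARPP19 share the stretch that Greatwall phosphorylates, and the coding sequence around it is shown because it is the part of both proteins on which the kinase acts. In the 60 bases below, written 5′ to 3′ from the GENCODE M21 transcripts (GRCm38), capitals mark the codon of the serine that Greatwall phosphorylates, codon 67 of 121 in Ensa and 62 of 112 in Arpp19.
Ensa: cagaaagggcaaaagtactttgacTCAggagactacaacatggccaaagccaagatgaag
Arpp19: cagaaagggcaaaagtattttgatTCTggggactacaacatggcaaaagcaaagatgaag
Of these 60 bases 54 (90%) were identical, against 249 of 336 aligned bases (74.1%) over the coding sequences. The window was placed on a stretch that both proteins share, so part of its higher identity was built in. The Ensa stretch spans 2 exons on the plus strand of chromosome 3 (95626866 to 95628591), and the Arpp19 stretch spans 2 exons on the plus strand of chromosome 9 (75052347 to 75056685). No transcript of another gene matched Ensa or Arpp19 at 95% identity or more over at least 200 bases.

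Total counts ran from 165048 to 2325564 in Pachytene cells (median 730979) and from 198117 to 1497037 in Metaphase I cells (median 540662). The label was checked against 9 pachytene and diplotene markers, all with counts in both groups. Their summed level was 15317 to 25452 CPM (counts per 1000000) in Pachytene and 8699 to 24098 in Metaphase I. The medians of this sum were 21014 and 21705 CPM. No metaphase marker was used, so the check could not tell Metaphase I from Pachytene. Ldhc, the testis lactate dehydrogenase gene, made up most of this sum, with medians of 17768 and 18410 CPM per cell. Of the other markers, Sycp3, a synaptonemal complex gene, had medians of 138 and 136 CPM, and Spag6, a gene of the sperm axoneme, only 1.55 and 3.65 CPM. In 8 libraries, Pachytene replicates 2, 3, 7 and 19 and Metaphase I replicates 3, 7, 17 and 19, X-linked genes held over 0.3% of counts. In 7 of these, 10 elongating spermatid markers summed to 1061 to 5853 CPM, where the highest of the 32 libraries without such X-linked counts had 1236. Metaphase I replicate 19 instead had 13401 CPM of 10 Sertoli cell markers, with Gata4, Amh and Rhox5 at 0 in both groups, where the highest of the other 39 libraries had 214. Metaphase I replicate 18 had the lowest level of the pachytene and diplotene markers, 8699 CPM. The part of these other RNAs in the results was not tested.

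The 8 genes fell into an abundant set and a scarce set. Per kilobase of exon, the median over the 40 cells was 21.8 CPM per kb for Ppp2r1b, 21.1 for Ppp2r2d, 20.6 for Ppp2r2a, 18.7 for Ensa, 9.06 for Arpp19, 2.43 for Ppp2r1a, 0.260 for Mastl and 0 for Ppp2r2b. The quartile ranges of neighbours in this order overlapped in every case but that of Arpp19 and Ppp2r1a, and Arpp19 was above Ppp2r1a in 38 of 40 cells. The order was the same in CPM without division by length, which matters because the libraries kept the 3′ ends of transcripts and a count need not scale with length.

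Mastl, on the minus strand of chromosome 2 (23115606 to 23156024), was close to the limit of what these cells could show. It had 58 counts in all Pachytene cells and 52 in all Metaphase I cells, and per cell it ran from 0 to 27.6 CPM (median 1.32) and from 0 to 17.8 CPM (median 2.10). A count was found in 12 of 20 Pachytene cells (60%, exact binomial 36.1% to 80.9%) and 11 of 20 Metaphase I cells (55%, 31.5% to 76.9%), and the ranges of the groups overlapped. After thinning every cell to 340000 counts, which left out shallower cells, it was found in 9 of 19 and 9 of 17. A count of 0 allows up to 3 counts, which is 18.2 CPM in the shallowest cell (Pachytene replicate 5) and 1.29 CPM in the deepest (Pachytene replicate 7). The summed level was 3.28 CPM (exact Poisson interval 2.49 to 4.24) in Pachytene and 3.79 CPM (2.83 to 4.97) in Metaphase I, 1.16-fold higher with an interval of 0.779 to 1.71, so a difference was not detectable at this depth. Pachytene replicate 10 alone held 31.0% of the Pachytene counts.

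Both Greatwall substrates were found in every cell. Ensa (chromosome 3, plus strand, 95624993 to 95632102) ran from 12.1 CPM in Pachytene replicate 3 to 189 CPM in replicate 4, with a median of 99.2, and in Metaphase I from 35.3 to 189 CPM, with a median of 104. The groups overlapped, and the sum was 1.30-fold higher in Metaphase I (exact interval 1.21 to 1.40). The log2 ratio was 0.38, and 0.22 without the 8 libraries with over 0.3% X-linked counts. In Pachytene the 4 libraries with over 0.3% X-linked counts had the lowest Ensa levels, 12.1 to 29.1 CPM, below all of the other 16 at 45.8 to 189 CPM. In Metaphase I the 4 such libraries had 43.1 to 75.3 CPM and overlapped the other 16, at 35.3 to 189 CPM.

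Arpp19 (chromosome 9, plus strand, 75037614 to 75060313) had a wider relative spread among cells than Ensa, with a coefficient of variation of 75.8% against 54.7% in Pachytene and 87.9% against 43.0% in Metaphase I. In Pachytene its median was 54.1 CPM (range 11.6 to 167, quartiles 22.1 and 102), and in Metaphase I 39.4 CPM (range 7.07 to 226, quartiles 30.0 and 107). The sum was 1.50-fold higher in Metaphase I (1.38 to 1.62), while the median over cells was lower, a log2 ratio of 0.57 for the sums and -0.45 for the medians. Metaphase I replicate 13 held 25.6% of the group's Arpp19 counts, and without it the log2 ratio of the sums was 0.32. The direction of the Arpp19 difference thus changed with the summary used, and the groups overlapped.

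Which substrate transcript was the more abundant also differed from cell to cell. Per kilobase, Ensa was above Arpp19 in 12 of 20 Pachytene cells and 16 of 20 Metaphase I cells. By counts, Arpp19 held over 50% of both genes in 5 Pachytene and 3 Metaphase I cells. Arpp19 made up 42.6% (exact binomial 40.7% to 44.5%) of the summed counts of both genes in Pachytene, and 45.9% (44.1% to 47.8%) in Metaphase I. Within single cells the share ran from 12.0% in Pachytene replicate 8 to 79.1% in replicate 7 (median 44.8%), and from 6.00% in Metaphase I replicate 16 to 65.1% in replicate 13 (median 35.0%). The spread among cells of one group was wider than the distance between the groups.

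**Figure D1:**
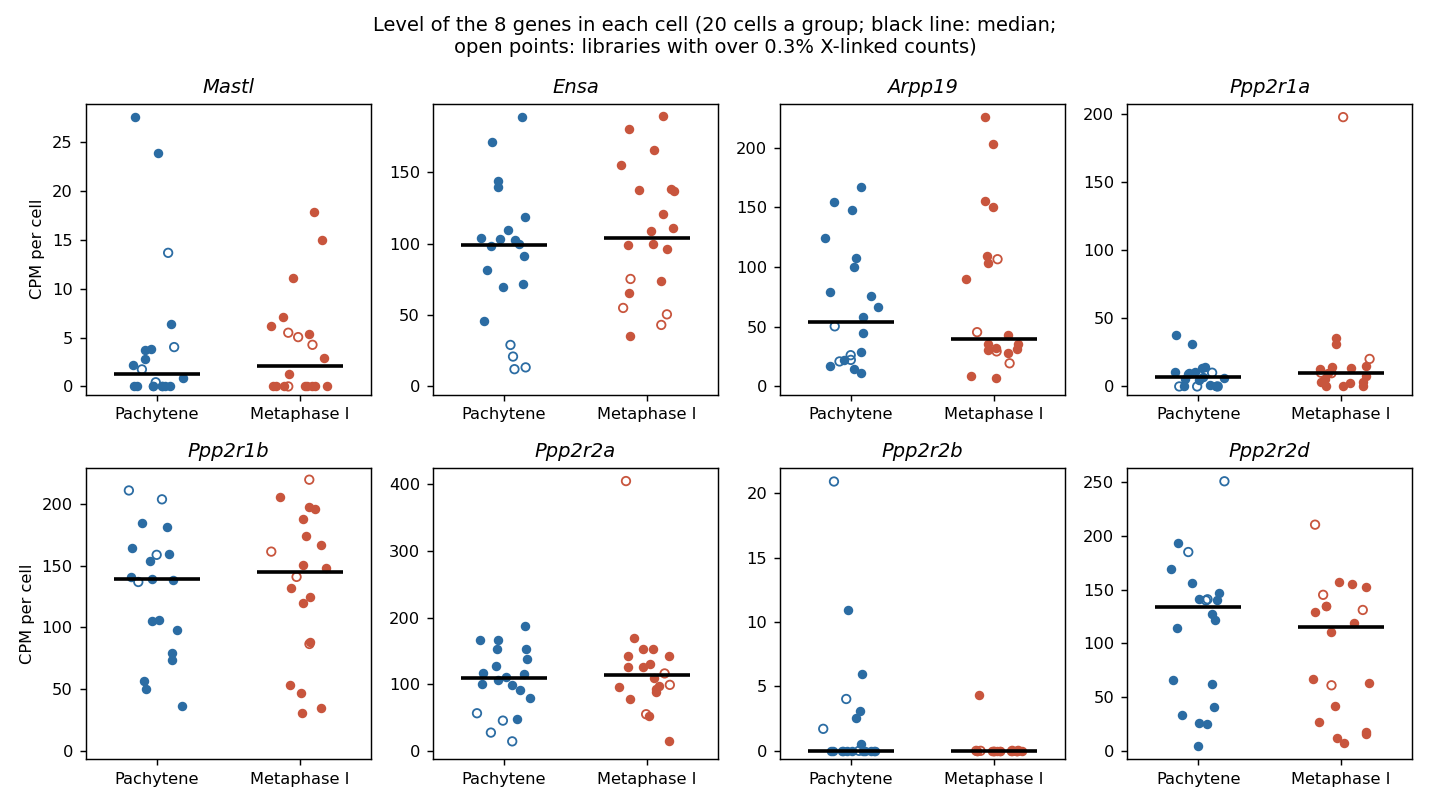
Level of each gene in CPM (vertical axis, linear, its own scale per gene) in the 20 Pachytene and 20 Metaphase I cells, with 1 point a cell, a black line at the median and open points for the 8 libraries with over 0.3% X-linked counts. The groups overlap for all 8 genes, Ppp2r1a and Ppp2r2a have their highest point in Metaphase I replicate 19 (197 and 405 CPM), and the 4 open Pachytene points lie lowest for Ensa.

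Of the scaffold genes, Ppp2r1b was the more abundant per kilobase in 18 of 20 cells of each group. By counts, Ppp2r1a held over 50% in 0 of 20 Pachytene cells and 1 of 20 Metaphase I cells. Ppp2r1b (chromosome 9, plus strand, 50845301 to 50894229) had 36.4 to 211 CPM in Pachytene (median 139) and 31.0 to 220 CPM in Metaphase I (median 145). The groups overlapped, with a sum 1.13-fold higher in Pachytene (1.06 to 1.21) and a median slightly higher in Metaphase I (log2 ratio 0.06). Ppp2r1b shares 1429 exon bases with Sik2 on the opposite strand, which had 778 counts, and without a stated strand setting reads from these bases cannot be told apart.

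Ppp2r1a, the scaffold gene known as the dominant form in most somatic tissues (chromosome 17, plus strand, 20945311 to 20965916), was scarce here. It ran from 0 to 37.8 CPM in Pachytene (median 6.71) and from 0 to 197 CPM in Metaphase I (median 9.89), with a count in 14 and 17 of 20 cells. Metaphase I replicate 19, the library with 13401 CPM of Sertoli cell markers, was far above the rest and held 139 of the 297 Metaphase I counts (46.8%). The sum was 2.71-fold higher in Metaphase I (2.21 to 3.34, log2 ratio 1.34), but the log2 ratio was 0.55 without replicate 19 and 0.25 without the 8 libraries with over 0.3% X-linked counts.

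As a share of scaffold counts, Ppp2r1a had 5.50% in Pachytene (4.65% to 6.45%) and 15.2% in Metaphase I (13.6% to 16.8%), or 8.99% without Metaphase I replicate 19. Leaving out the 8 libraries with over 0.3% X-linked counts gave 7.59% and 9.36%. Per cell the share ran from 0 to 40% (median 4.52%) and from 0 to 69.5% (median 6.16%). How low a share of 0 lies depends on the scaffold counts of the cell. In Pachytene replicate 7, 0 of 491 allows up to 0.748% by the exact binomial interval, below the group median of 4.52%. In Pachytene replicate 5, 0 of 6 allows up to 45.9%. These shares are of counts and not per length (exon lengths 3411 bases for Ppp2r1a and 6449 for Ppp2r1b). Per kilobase, Ppp2r1a was above Ppp2r1b in Pachytene replicates 14 and 16 and in Metaphase I replicates 1 and 19. By counts it was above only in Metaphase I replicate 19.

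Among the B55 genes, Ppp2r2a and Ppp2r2d were abundant and Ppp2r2b was nearly absent. Ppp2r2a (chromosome 14, minus strand, 67014056 to 67072444) had 14.2 to 187 CPM in Pachytene (median 109) and 14.9 to 405 CPM in Metaphase I (median 113). The sum was 1.21-fold higher in Metaphase I (1.13 to 1.29). Metaphase I replicate 19 held 17.7% of that group's counts, the lowest Metaphase I value was in replicate 18, and the log2 ratio went from 0.27 to -0.16 without the 8 libraries with over 0.3% X-linked counts, so its direction depended on these libraries.

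Ppp2r2d (chromosome 7, plus strand, 138846079 to 138883057) differed strongly from cell to cell. It ran from 4.52 CPM in Pachytene replicate 16 to 251 CPM in replicate 7 (median 134), and from 7.26 CPM in Metaphase I replicate 1 to 211 CPM in replicate 17 (median 115). The groups overlapped, and the sum was 1.51-fold higher in Pachytene (1.41 to 1.63, log2 ratio -0.59). Replicate 7, the deepest cell, held 26.9% of the Pachytene counts, and without it the log2 ratio was -0.34. Ppp2r2d shares 195 exon bases with Mapk1ip1 on the opposite strand, which had 442 counts.

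Ppp2r2b, known mainly from the nervous system (chromosome 18, minus strand, 42637432 to 43083127), had 48 counts over the Pachytene cells and 4 over the Metaphase I cells. In Pachytene it ran from 0 to 20.9 CPM with a median of 0, with a count in 8 of 20 cells (40%, 19.1% to 63.9%). In Metaphase I all 4 counts were in replicate 2 (4.34 CPM), 1 of 20 cells (5%, 0.127% to 24.9%). After thinning, a count was found in 6 of 19 Pachytene and 1 of 17 Metaphase I cells. The summed level was 2.72 CPM against 0.292 CPM, 9.31-fold higher in Pachytene (3.41 to 35.6), or a log2 ratio of -1.52 with the pseudocount of 1 CPM. Pachytene replicate 6 held 25 of the 48 counts (52.1%), and without it the log2 ratio was -0.95. The gene shares 169 exon bases with 4933407I08Rik on the opposite strand and 50 with 4930588A03Rik on its own strand, which had 26 and 126 counts.

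The makeup of the B55 counts differed widely between cells. Per kilobase, Ppp2r2a was above Ppp2r2d in 10 of 20 Pachytene cells and 14 of 20 Metaphase I cells. By counts, Ppp2r2a held over 50% of the B55 total in 9 and 11 cells. It made up 43.7% of the B55 counts in Pachytene (42.1% to 45.2%) and 59.0% in Metaphase I (57.1% to 60.9%). The medians over cells were 47.1% and 51.8%. Pachytene held both ends of the range, with 5.35% in replicate 7 and 95.7% in replicate 16. In Metaphase I the share ran from 27.4% in replicate 3 to 92.4% in replicate 1. Leaving out the 8 libraries with over 0.3% X-linked counts gave 54.2% and 60.0%.

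**Figure D2:**
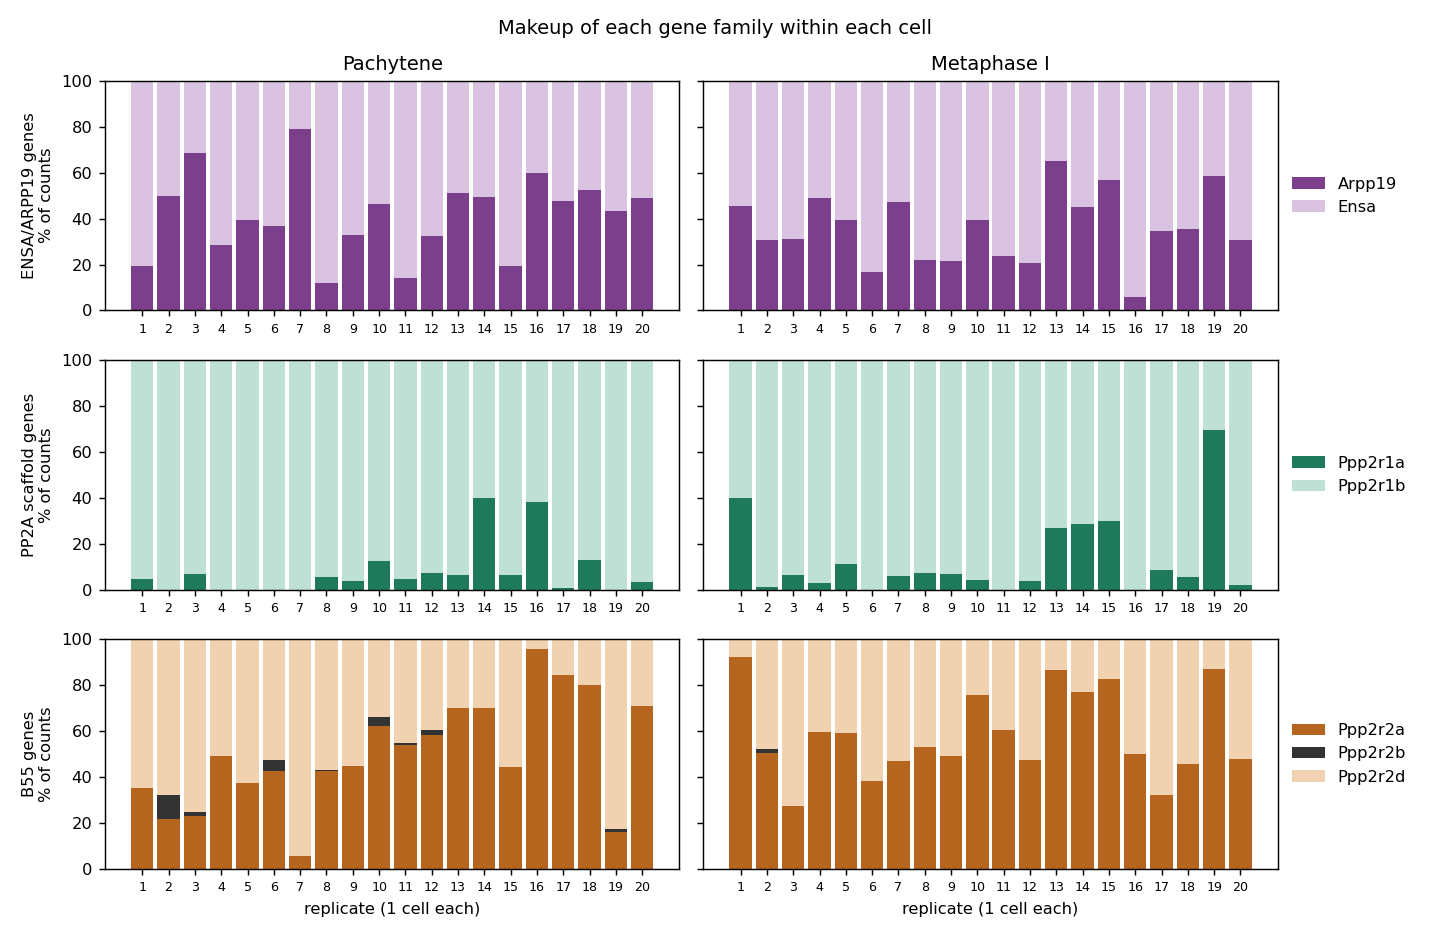
Percent of counts (vertical axis) held by each member of the substrate, scaffold and B55 gene families in each cell (horizontal axis, replicates 1 to 20; numbers name cells and pair nothing), Pachytene at left and Metaphase I at right. In the scaffold bars the Ppp2r1a part is largest in Metaphase I replicate 19 (69.5%), and the Ppp2r2a part of the B55 bars runs from 5.35% to 95.7% in Pachytene.

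Of all pairs of the 8 genes, Arpp19 and Ppp2r2d had the correlation furthest from 0 over the 40 cells, and it was negative (Spearman -0.76). Pachytene replicate 16 had 147 CPM of Arpp19 and 4.52 CPM of Ppp2r2d, and Metaphase I replicate 13 had 226 and 12.0 CPM. At the other end, Pachytene replicate 11 had 11.6 CPM of Arpp19 and 140 CPM of Ppp2r2d, and Metaphase I replicate 6 had 7.07 and 156 CPM. The 7.07 CPM rests on 2 counts, where 3 counts would be 10.6 CPM in that library. Arpp19 as a share of the counts of both genes ran from 7.63% to 97.0% in Pachytene (median 23.8%). In Metaphase I it ran from 4.35%, from the same 2 counts, to 95.4% (median 26.1%).

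Across cells the Spearman correlation of Arpp19 and Ppp2r2d was -0.67 in the 20 Pachytene cells, -0.85 in the 20 Metaphase I cells and -0.79 in the 32 cells left without the libraries of over 0.3% X-linked counts. It was -0.84 in the 31 cells left when Metaphase I replicate 18 was also omitted. That omission was added after seeing the data and removes a cell off the common course, so the -0.84 is no check. Such correlations are descriptions: values in CPM share each cell's total, and the cells may share an animal. Total counts themselves had a correlation of 0.09 with Arpp19 in Pachytene and 0.54 in Metaphase I, and of -0.17 and -0.44 with Ppp2r2d. Metaphase I replicate 18 lay off this course, low in Ppp2r2d (17.8 CPM) at 35.7 CPM of Arpp19, between the lower quartile and the median of its group.

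Ppp2r1b lay on the side of Ppp2r2d, and Ensa on the side of Arpp19. Ppp2r1b had a correlation of -0.76 with Arpp19 in Pachytene and -0.64 in Metaphase I, and of 0.44 and 0.80 with Ppp2r2d. Ensa had 0.60 with Arpp19 in both groups and -0.55 with Ppp2r2d in both (0.62 and -0.41 in the 32 cells without over 0.3% X-linked counts). Ppp2r2a had 0.09 and -0.24 with Arpp19 and -0.29 and 0.35 with Ppp2r2d. In the 32 cells without over 0.3% X-linked counts, Ppp2r2a had -0.36 with Arpp19 and 0.36 with Ppp2r2d, the signs that Ppp2r1b had at larger size (-0.73 and 0.59). The scarce members Mastl, Ppp2r1a and Ppp2r2b had too few counts per cell for a correlation to be read.

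**Figure D3:**
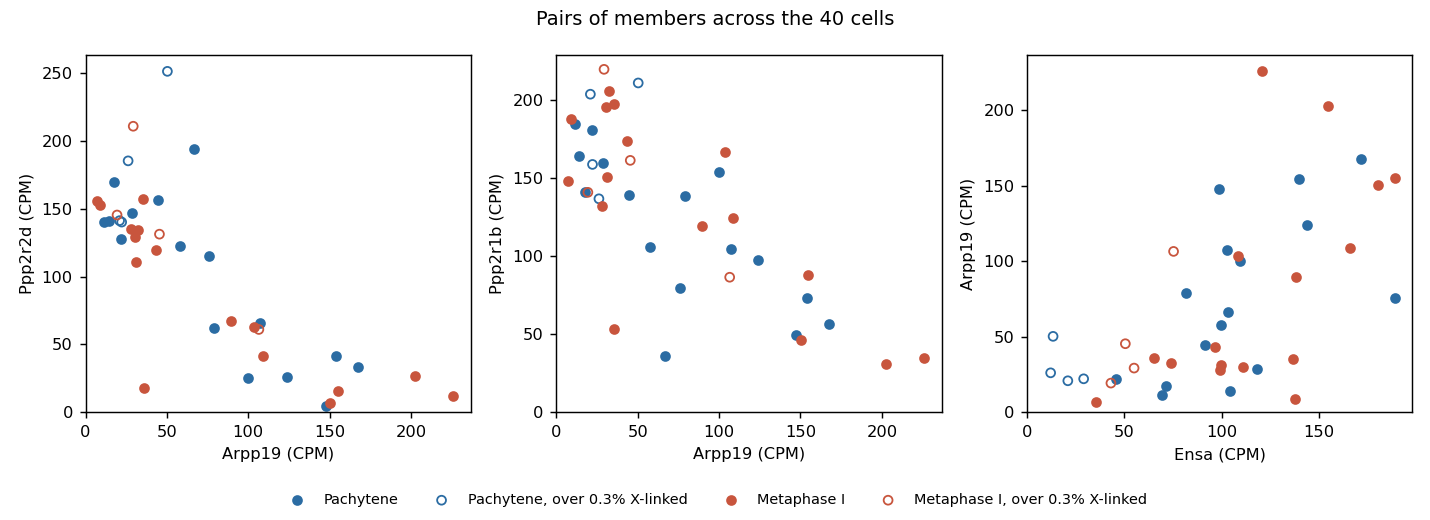
Level of Ppp2r2d against Arpp19, Ppp2r1b against Arpp19, and Arpp19 against Ensa, in CPM on linear axes, with 1 point for each of the 40 cells, colours for the groups and open points for the 8 libraries with over 0.3% X-linked counts. Cells high in Arpp19, such as Metaphase I replicate 13 at 226 CPM, lie low in Ppp2r2d (12.0 CPM there), and both colours run along the same course.

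Promoter sequence is shown for the 2 genes with this opposition, since their levels ran against each other. The table of RefSeq promoters (GRCm38.p6) held 6 of the 8 members. The windows below are the 250 bases before the more upstream of 2 RefSeq starts of each gene, 5′ to 3′, on the plus strand, chr9:75037364-75037613 for Arpp19 and chr7:138846109-138846358 for Ppp2r2d. Capitals mark matches to the cAMP response element TGACGTCA; a CCAAT box (CCAAT) would also be in capitals, and neither window has one.
Arpp19: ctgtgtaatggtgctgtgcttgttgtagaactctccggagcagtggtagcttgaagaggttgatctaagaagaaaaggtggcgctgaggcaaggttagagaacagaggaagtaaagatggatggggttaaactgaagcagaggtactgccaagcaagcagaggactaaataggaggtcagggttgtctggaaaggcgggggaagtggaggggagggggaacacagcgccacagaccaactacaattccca
Ppp2r2d: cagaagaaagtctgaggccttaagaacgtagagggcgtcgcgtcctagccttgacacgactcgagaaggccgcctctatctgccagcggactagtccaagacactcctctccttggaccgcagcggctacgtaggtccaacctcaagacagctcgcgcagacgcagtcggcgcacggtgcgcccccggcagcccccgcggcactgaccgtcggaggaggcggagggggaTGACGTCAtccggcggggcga
On both strands, the search also covered the GC box GGGCGG and the MYB core AACNG. The Ppp2r2d window held 1 cAMP response element, from 21 to 14 bases before the start, and no GC box or MYB core. The Arpp19 window held 2 MYB cores and no other match. Of 27025 gene promoters of the same length, 1.62% held TGACGTCA, 34.5% CCAAT, 32.9% GGGCGG and 74.1% AACNG. A match describes letters in this window and is not a bound site. The start of Ppp2r2d in the count table, 138846079, lies upstream of its window.

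Genes of the CDK1 switch, whose phosphorylation events the pathway protects, were compared with the members cell by cell. The genes named in these comparisons, beyond Ccnb2 and Cks2, were chosen after their values were seen. Arpp19 had correlations of -0.83 in both groups with Plk1, a mitotic kinase, and of -0.85 and -0.75 with Ccnb1, the cyclin B1 gene, in Pachytene and Metaphase I. With Ccna1, the germline cyclin A gene, it had -0.81 and -0.82, and with Ccnb2, another B-type cyclin, -0.84 and -0.69. With Cks2, which encodes a small CDK-binding protein, it had 0.71 and 0.78. Within the groups, some other genes of the switch had weaker values with Arpp19: Pkmyt1 0.35 and 0.29, Aurka -0.35 and -0.66, and Bora -0.27 and -0.66. How many of all genes reached such negative values is not given here, so a relation particular to the switch cannot be read. In the 32 cells without over 0.3% X-linked counts, Arpp19 had -0.88 with Plk1, -0.87 with Ccnb1, -0.89 with Ccna1, -0.71 with Ccnb2 and 0.83 with Cks2. In these cells Arpp19 also had -0.88 with Aurka, so Aurka was not weaker there, and -0.42 with Bora and 0.29 with Pkmyt1.

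Ppp2r2d had the opposite signs. Its correlation was 0.75 and 0.83 with Ccnb1, 0.78 and 0.75 with Cdc25a, a CDK-activating phosphatase, and -0.64 and -0.73 with Cks2. In those 32 cells it had 0.83, 0.74 and -0.66. Correlations with Cdk1 itself depended on the libraries with over 0.3% X-linked counts. Ppp2r2a had 0.71 and 0.60 with Cdk1, and 0.51 in the 32 cells without them. Ppp2r2d had -0.06 and 0.39 with Cdk1 but 0.65 in those 32 cells, and Arpp19 had -0.30 and -0.40 but -0.78.

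The 9 pachytene and diplotene markers did not share one sign. In both groups Piwil1, Hormad1, Sycp1, Sycp3 and Hspa2 had positive correlations with Arpp19 and negative ones with Ppp2r2d. Piwil1, a PIWI protein gene, had 0.83 and 0.65 with Arpp19 and -0.75 in both groups with Ppp2r2d. Adam3, a sperm surface protein gene, had -0.70 and -0.85 with Arpp19 and 0.47 and 0.88 with Ppp2r2d, the signs that Ccna1 also had. Spag6, scarce in most cells, was not read in this way. Ldhc changed sign between the groups, with 0.29 and -0.13 for Arpp19 and -0.61 and 0.24 for Ppp2r2d. In the 32 cells without over 0.3% X-linked counts it had -0.06 with Arpp19 and 0.10 with Ppp2r2d.

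The PP2A genes outside the 8 did not share one sign. Ppp2cb, a catalytic subunit gene, had -0.47 and -0.75 with Arpp19 and 0.51 and 0.75 with Ppp2r2d. Ppp2cb held a median over cells of 95.6% of the counts of both catalytic subunit genes in Pachytene and 94.2% in Metaphase I, with a lowest share of 15.2% in Metaphase I replicate 19. Ppp2ca, the other catalytic gene, had too few counts per cell for a correlation to be read. Tiprl, which encodes a PP2A-binding regulator, had -0.68 and -0.85 with Arpp19 and 0.51 and 0.82 with Ppp2r2d. Set, a regulator gene, had the reverse, 0.65 and 0.60 with Arpp19 and -0.42 and -0.50 with Ppp2r2d. Ppp2r5e, a regulatory subunit gene, changed sign between the groups, with 0.11 and -0.49 for Arpp19 and -0.49 and 0.55 for Ppp2r2d. In the 32 cells without over 0.3% X-linked counts it had -0.42 with Arpp19 and 0.32 with Ppp2r2d.

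**Figure D4:**
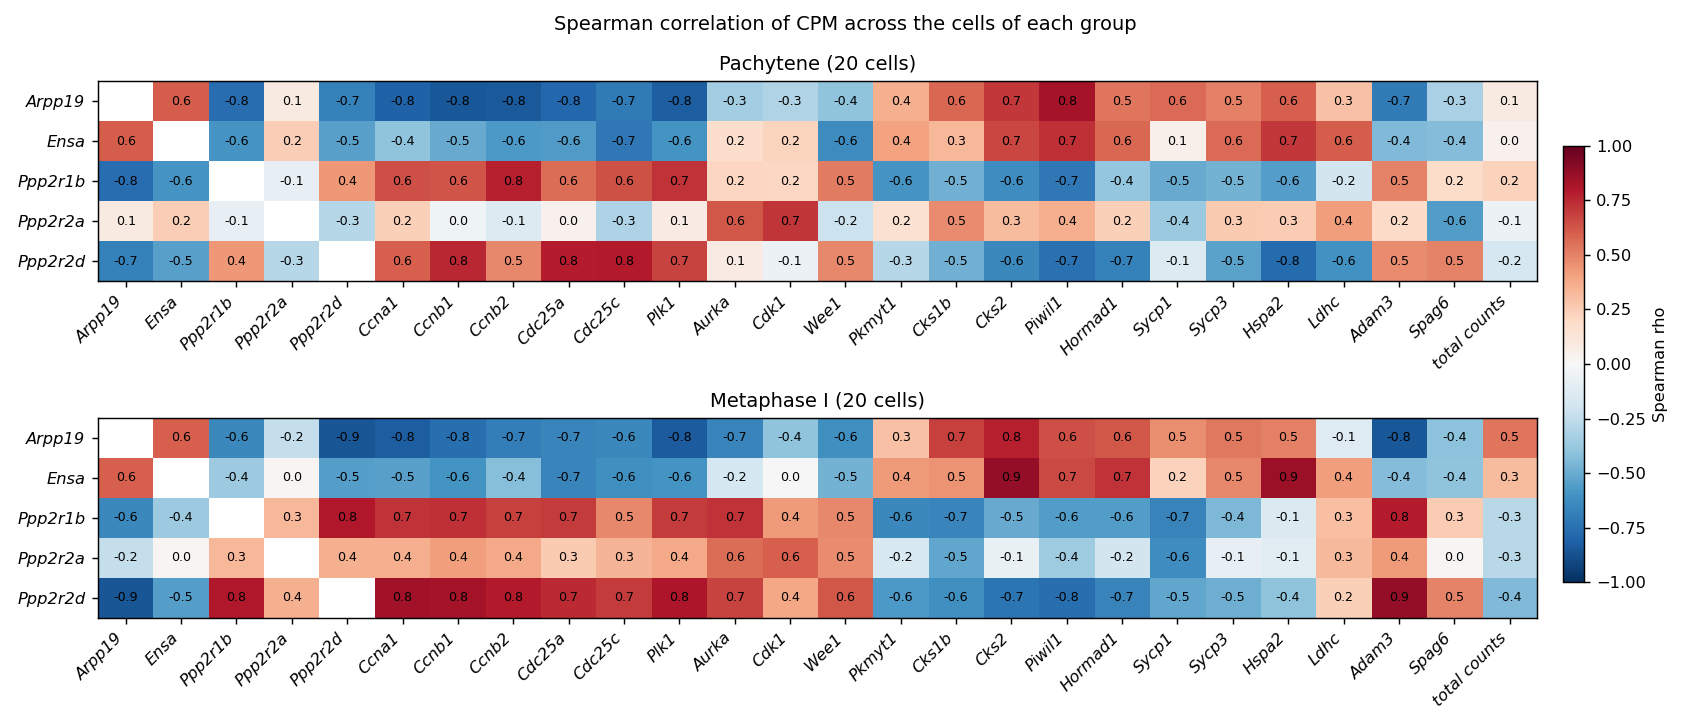
Spearman correlation of CPM across the 20 cells of each group (Pachytene above, Metaphase I below) between the 5 abundant members (rows) and each other, genes of the CDK1 switch, the pachytene and diplotene markers and the total counts (columns), red for positive and blue for negative. Arpp19 and Ppp2r2d carry opposite colours for Ccnb1, Plk1, Cks2, Piwil1 and Adam3 in both groups, and the Ppp2r2a row is strongest with Cdk1 in Pachytene (0.71).

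For each member with at least 1000 counts, the 3 genes most like it were taken by Spearman correlation over the 40 cells, among 4895 genes with at least 1000 counts. Arpp19 was most like Rbm8a (0.87), Fth1 (0.83) and U2af1 (0.83). Ppp2r2d was most like Papolb (0.85), Spata20 (0.85) and Lrrc34 (0.85). Rbm8a encodes an exon junction protein, Fth1 ferritin heavy chain, U2af1 a splicing factor and Papolb a testis poly(A) polymerase.

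Ensa was most like Serbp1 (0.84), which encodes an mRNA-binding protein, Pbx4 (0.83), a homeobox gene, and Calm2 (0.82), a calmodulin gene. Ppp2r1b was most like Ssmem1 (0.86), Spesp1 (0.84), a sperm equatorial segment gene, and Dgka (0.82), a diacylglycerol kinase gene. Ppp2r2a was most like Polr2e (0.80), a subunit gene of RNA polymerases, then Sqstm1 (0.71), an autophagy receptor gene, and Cdk1 (0.67). The 95th percentile over all genes compared lay at 0.65 for Arpp19, 0.64 for Ppp2r2d, 0.67 for Ensa, 0.63 for Ppp2r1b and 0.46 for Ppp2r2a. The named genes were picked as the most like each member, so they had to lie above its percentile. Their place above it therefore shows nothing about them. Without the 8 libraries with over 0.3% X-linked counts, Serbp1 had 0.73 with Ensa and Cdk1 0.51 with Ppp2r2a, while Rbm8a had 0.92 with Arpp19.

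Between the groups, 1 of the 8 genes (Ppp2r1a) was over 2-fold higher in Metaphase I and 1 (Ppp2r2b) over 2-fold lower, by the log2 ratio of the sums with a pseudocount of 1 CPM. Of all 16174 genes with at least 20 summed counts, 8.49% were over 2-fold higher and 9.81% lower, so 1 gene of 8 in each direction is near the background. The median log2 ratio was 0.21 for the 8 genes and -0.00 for all genes. Without the 8 libraries with over 0.3% X-linked counts, none was over 2-fold higher and Ppp2r2b was over 2-fold lower, with 6.32% and 4.13% of all 13451 genes measured. The log2 ratio was then 0.19 for Mastl, 0.56 for Arpp19, -0.06 for Ppp2r1b, -1.33 for Ppp2r2b and -0.47 for Ppp2r2d. Without Metaphase I replicate 19 the counts were again 0 higher and 1 lower, with 5.06% and 10.2% of 15667 genes. Without Metaphase I replicate 18 and the 8 libraries they were 0 and 1, with 4.91% and 4.87% of 13225 genes.

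**Figure D5:**
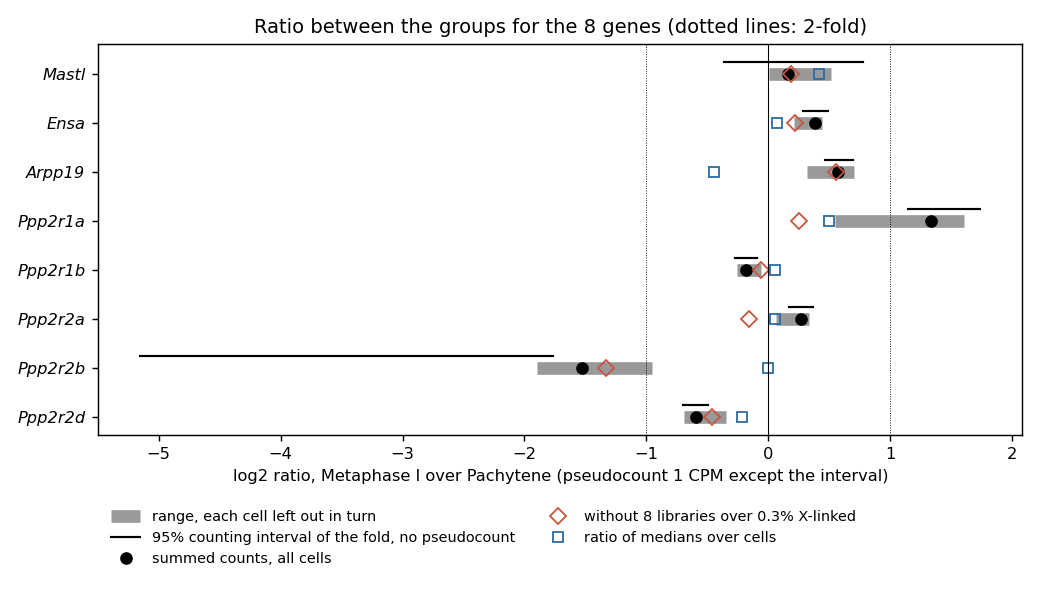
Log2 ratio of Metaphase I over Pachytene for the 8 genes (horizontal axis; dotted lines at 2-fold): black points give the sums with a pseudocount of 1 CPM, thin lines the counting interval of the fold without pseudocount, grey bars the range with each cell left out in turn, red diamonds the ratio without the 8 libraries with over 0.3% X-linked counts and blue squares the ratio of medians. Ppp2r1a goes from 1.34 to 0.25 without those libraries, and Arpp19 lies on opposite sides of 0 for the sums (0.57) and the medians (-0.45).

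Of 23 other PP2A subunits and regulators, 19 were measured, and 1 was over 2-fold higher and 0 lower, against 8.49% and 9.81% of all genes. Their median log2 ratio was 0.14, against -0.00 for all genes. The 1 was Ppp2r5a, a B56 regulatory subunit gene, with 4 counts over all Pachytene cells and 21 over all Metaphase I cells, 81.0% of the latter from replicate 13. The most abundant were Tiprl, at 250 CPM in Pachytene and 201 CPM in Metaphase I, and Ppp2r5e, another B56 gene, at 197 and 220 CPM. Without the 8 libraries with over 0.3% X-linked counts Ppp2r3a, a B″ subunit gene, was also over 2-fold higher (log2 ratio 1.55).

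Of 16 genes of the CDK1 switch, 14 were measured and 0 were past 2-fold in either direction, against 8.49% higher and 9.81% lower of all genes. The median of their log2 ratios was 0.25, against -0.00 for all genes. Ccnb2 had 558 and 681 CPM and Cks2 374 and 474 CPM. Of 5 genes of PP1 and FCP1, phosphatases that also act on CDK1 substrates, 4 were measured, 0 higher and 1 lower. The same shares of all genes apply to these 4, too few to compare with them. The 1 was Ctdp1, the FCP1 gene, with 1203 and 423 counts (log2 ratio -1.12), 56.3% of the Pachytene counts being in replicate 7, and a log2 ratio of -0.20 without the 8 libraries. Ppp1r2, an inhibitor of PP1, had 198 and 204 CPM, and Ppp1cc, a PP1 catalytic subunit gene, 76.3 and 94.4 CPM.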

How the data were processed

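Single-cell cDNA was made by a modified STRT-seq protocol with a barcode per cell, per the labels. The submitters' processing notes name STAR, featureCounts, UMI-tools and the build GRCm38. The authors deposited whole-number counts per gene with exon coordinates. The sources used here do not give the annotation release, the strand setting, or whether PCR copies were removed from the counts. If they were not, the intervals are too narrow.

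Counts were scaled to 1000000 per cell or group sum (CPM). The log2 ratio used a pseudocount of 1 CPM, genes with at least 20 summed counts and a 2-fold threshold. Intervals were exact Poisson, conditional binomial and Clopper-Pearson (scipy 1.17.1). TMM factors came from edgeR 4.0.16, and copies were sought with BLAST 2.17.0+. The code was tested on simulated data. In 780 library pairs the chi-square statistic per degree of freedom was 2.69 or more, so none was counted as a copy. By rule, the named genes were all 8 members, genes past 2-fold and the 2 most abundant in the lists of PP2A, CDK1 switch and PP1 and FCP1 genes, and the 3 genes most like each member with at least 1000 counts. Other genes were named after their values were seen, except markers fixed to check cell types. The members and lists were chosen with earlier results of these data known. Omission of Metaphase I replicate 18 with the 8 X-linked libraries was added after seeing the data.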

Additional observations from a re-analysis of the deposited data

How the results depend on the processing

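The 1 gene over 2-fold higher (Ppp2r1a) became 0 with a pseudocount of 10 CPM, with the ratio of medians, without the 8 libraries with over 0.3% X-linked counts, and without these and Metaphase I replicate 18. The 1 gene over 2-fold lower (Ppp2r2b) became 0 with 10 CPM, with a count minimum of 100 and with the ratio of medians. With the ratio of medians the shares of all genes also fell, to 3.52% higher and 5.35% lower from 8.49% and 9.81%. The shares with 10 CPM or a count minimum of 100 are not given here. With each cell left out in turn both counts ran from 0 to 1, reaching 0 without Metaphase I replicate 19 for Ppp2r1a and without Pachytene replicate 6 for Ppp2r2b. The cause was not tested.

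With each cell left out in turn the log2 ratio ran from 0.32 to 0.70 for Arpp19, from 0.55 to 1.60 for Ppp2r1a, from -1.89 to -0.95 for Ppp2r2b and from -0.69 to -0.34 for Ppp2r2d, and changed sign for none of the 8 genes. With equal weight per cell it was -0.13 for Mastl and 0.05 for Ppp2r1b, which had 0.16 and -0.18 in the sums. The share of Ppp2r1a in Metaphase I scaffold counts ran from 8.99% to 17.1%. TMM and median-of-ratios scaling moved the median of all genes to -0.01. No paired analysis was possible because the replicate numbers only name cells and no test between the groups could be made. Low counts limit what can be read of Mastl and Ppp2r2b, which had a count of 0 in many cells. Deep cells were among these, Pachytene replicate 6 (2283438 counts) for Mastl and Pachytene replicate 7 (2325564 counts) for Ppp2r2b. The part of depth in these zeros was not tested.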
